A study of Mus musculus with 18 samples.

Results

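The 9 genes *Zscan4c*, *Zscan4d*, *Zscan4f*, *Tcstv1*, *Tcstv3*, *Zfp352*, *Tdpoz1*, *Tdpoz3* and *Tdpoz4* are two-cell-stage genes of mouse, chosen by name from 32961 gene loci outside chromosome 2, and H3K9me3 was measured at each of them. A gene's window is its annotated transcripts plus 10 kb on each side, and a peak counts when it overlaps the window. H3K9me3 ChIP-seq libraries were made from E14TG2a mouse embryonic stem cells (mESCs), grown without feeder cells on gelatin with serum and LIF. There were 3 genotypes with 2 libraries each, wild-type, *Uhrf1* KO and *Dhx9* KO. The *Uhrf1* KO cells are clonal CRISPR-Cas9 lines made in mESCs that carry an inducible heterochromatin reporter. The authors also name this reporter for the wild-type cells compared with them. Whether both *Uhrf1* KO libraries came from 1 clone, and how the *Dhx9* KO cells were made, is not given in the sources used here. The question of each comparison is whether H3K9me3 at these genes differs without UHRF1 or without DHX9. Peaks carry no measure of expression and cannot check either deletion.

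H3K9me3 marks silent chromatin in mESCs, where it is laid down by enzymes such as SETDB1 and covers many repeats and silent genes. Two-cell-stage genes are transcribed when the mouse embryonic genome is first activated and in a small, shifting fraction of mESCs that resemble that stage, while most cells of a culture keep them silent. UHRF1 binds newly replicated DNA and brings in the maintenance DNA methyltransferase DNMT1, and DHX9 is a helicase that unwinds RNA and RNA-DNA hybrids. Since the libraries come from whole cultures, a change in a few cells and a small change in all cells cannot be told apart.

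The lists hold 70195 to 125453 peaks per library, with 6703081 to 20875020 ChIP reads within them, and *Uhrf1* KO replicate 1 is the shallowest on both counts. At peaks with identical limits, 100% of background counts were equal between any pair of wild-type and *Dhx9* KO lists, but only 1.85% to 4.29% between those and the *Uhrf1* KO lists, whose background was therefore another one. *Uhrf1* genotype and background cannot be told apart wherever background reads enter a value. This includes the presence and extent of peaks, which were called over background. Of 10 genes that define mESCs, 4, 3, 2, 2, 3 and 2 had a promoter peak in wild-type 1 and 2, *Uhrf1* KO 1 and 2 and *Dhx9* KO 1 and 2. In that order of libraries, used throughout, the share of all gene windows with a peak was 73.9%, 74.0%, 49.5%, 63.0%, 75.1% and 70.0%.

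The *Zscan4* genes encode SCAN-domain zinc finger proteins of the 2-cell embryo that are known for their part in telomere maintenance. The 3 copies lie on chromosome 7 (mm10), *Zscan4c* at chr7:11005745-11010547 on the plus strand, *Zscan4d* at chr7:11160883-11167460 on the minus strand and *Zscan4f* at chr7:11397915-11402318 on the plus strand. Over their transcripts, *Zscan4c* and *Zscan4f* are 99.4% identical along 4381 aligned bases, and *Zscan4d* is 96.6% identical to *Zscan4c* along 4529 bases. The promoters below show how little separates the copies. They are 151 bases upstream of each RefSeq start (GRCm38.p6), written along the gene, and capitals mark the 5 positions at which the copies differ.

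Zscan4c promoter, chr7:11005571-11005721 (+): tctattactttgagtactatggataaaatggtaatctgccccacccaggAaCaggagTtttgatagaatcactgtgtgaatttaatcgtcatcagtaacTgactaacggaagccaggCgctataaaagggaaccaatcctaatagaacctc
Zscan4d promoter, chr7:11166183-11166333 (-): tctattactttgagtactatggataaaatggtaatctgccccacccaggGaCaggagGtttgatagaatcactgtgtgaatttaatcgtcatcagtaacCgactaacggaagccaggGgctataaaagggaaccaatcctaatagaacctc
Zscan4f promoter, chr7:11397764-11397914 (+): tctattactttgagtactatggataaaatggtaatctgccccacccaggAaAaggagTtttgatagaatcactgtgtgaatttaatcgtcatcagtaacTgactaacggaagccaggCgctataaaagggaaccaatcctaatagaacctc

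These 151 bases end 24, 35 and 1 bases upstream of the starts of *Zscan4c*, *Zscan4d* and *Zscan4f*. Each holds the motif TATAAA, which was looked for on both strands. It stands in the 300-base promoters of 3 of the 6 members with a RefSeq promoter entry, those 3, and in 13.6% of all 32851 promoters. Reads of 150 bases can fit more than 1 copy. In the windows of *Zscan4c*, *Zscan4d* and *Zscan4f*, 49.5%, 20.5% and 65.4% of all 150-base words occur more than once in the genome, compared with a median of 0.151% over 10 housekeeping genes and 0.439% over 10 pluripotency genes. The other members lie between 2.98% at *Tcstv3* and 18.0% at *Tcstv1*, so the *Zscan4* windows hold the most repeated known sequence of the 9, as the plot of repeated words shows. The *Tcstv3* value covers only known bases, since 30.9% of its window is unknown, and a 150-base word of that window occurs 290 times in the genome.

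**Figure D1:**
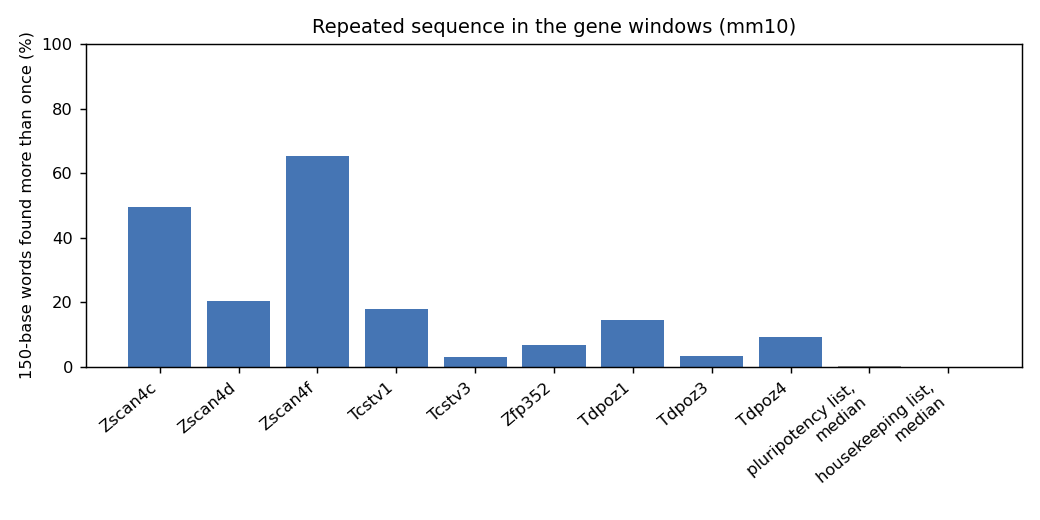
Percent of 150-base words of each gene window (mm10, y axis) that occur more than once on either strand of the assembled chromosomes, for the 9 genes and as the median of the pluripotency and housekeeping lists of 10 genes each. *Zscan4f* reaches 65.4% and *Zscan4c* 49.5%, while the bars of both lists, 0.439% and 0.151%, are hardly visible. Words with unknown bases are left out, and 30.9% of the *Tcstv3* window is unknown.

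In wild-type and *Dhx9* KO cells, the H3K9me3 peaks of *Zscan4c* and *Zscan4f* lay upstream of the gene. Distances are given from the transcript start along the gene, upstream negative. At *Zscan4c* a peak ended at -8.75 kb in 5 libraries and at -9.55 kb in *Dhx9* KO 1. ChIP and background reads of this peak were 109 over 32 and 105 over 31 for wild-type, 53 over 15 and 151 over 19 for *Uhrf1* KO, and 97 over 36 and 142 over 39 for *Dhx9* KO. The log2 folds over background of this peak, scaled to library size by the peak caller, were 1.93, 1.98, 2.36, 2.65, 1.43 and 1.87. Both *Uhrf1* KO values stood above and both *Dhx9* KO values below those of wild-type, in the first case on another background.

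At *Zscan4f* the counterpart peak ended between -9.72 and -8.72 kb and was missing from *Dhx9* KO 1. It held 129 and 83 ChIP reads for wild-type, 32 and 133 for *Uhrf1* KO and 108 for *Dhx9* KO 2, with log2 folds of 1.65, 1.51, 2.73, 3.13 and 1.52. The stretch of *Zscan4c* that all 6 libraries called is 400 bp long, from -9.94 to -9.55 kb. The 150 bases of it most alike in both copies are shown because they carry the shared peak. They differ at 0 positions, so a read of these bases fits both copies equally well, and no capitals appear.

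Zscan4c upstream stretch, chr7:10995801-10995950 (+): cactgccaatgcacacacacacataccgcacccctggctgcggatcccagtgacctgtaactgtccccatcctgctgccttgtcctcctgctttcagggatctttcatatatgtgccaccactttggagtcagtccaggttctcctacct
Zscan4f upstream stretch, chr7:11387994-11388143 (+): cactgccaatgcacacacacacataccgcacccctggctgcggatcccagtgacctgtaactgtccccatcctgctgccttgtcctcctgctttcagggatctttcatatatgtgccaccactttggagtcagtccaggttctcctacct

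A peak covered the *Zscan4c* bases in 6 libraries and the *Zscan4f* bases in 5. Which copy a read was given to is therefore not settled by the sequence, and an absence at *Zscan4f* in *Dhx9* KO 1 stands beside the presence of the same bases in a peak at *Zscan4c*.

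The transcripts and promoters of *Zscan4c* and *Zscan4f* were without a wild-type peak. Within 1 kb of the start, neither had a peak in any library. *Uhrf1* KO 1 had a peak over the 3′ part of *Zscan4c*, from 3.66 to 6.46 kb with 41 reads over 10. *Uhrf1* KO 2 had none there but had a peak downstream, at 7.86 to 9.46 kb with 53 reads over 11. Both *Uhrf1* KO libraries called 1000 bp from 13.9 to 14.9 kb, where wild-type cells had none. The called share, the percent of the window within peaks, was 5.06% and 5.06% in wild-type, 20.2% and 15.3% in *Uhrf1* KO and 1.84% and 5.06% in *Dhx9* KO cells.

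*Zscan4d* had peaks on both sides. The bases from -3.65 to -2.65 kb and those from 14.7 to 15.3 kb were called in all 6 libraries. Distances here are from the start of the curated RefSeq transcript, and the window is wider because a predicted transcript extends beyond it. The upstream peak had 120 and 67 ChIP reads for wild-type, 38 and 108 for *Uhrf1* KO and 83 and 132 for *Dhx9* KO, with log2 folds of 1.86, 1.76, 2.20, 2.32, 1.85 and 1.73. A peak over the whole transcript and its start, 5600 bp long with 112 reads over 43, was found in *Uhrf1* KO 1 alone, and both *Uhrf1* KO libraries called 1400 bp from 8.95 to 10.3 kb that wild-type cells lacked. The called share was 20.8% and 9.47%, 44.3% and 15.5%, and 6.46% and 16.2%, and the genotypes overlapped.

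*Tcstv1* and *Tcstv3*, members of the 2-cell-stage variable group whose proteins are little characterised, lie on chromosome 13 at chr13:119893387-119894785 on the minus strand and chr13:120316862-120318261 on the plus strand. Their transcripts are 94.6% identical over 1403 aligned bases, yet only 0.963% of the 150-base words of the *Tcstv1* window also occur in that of *Tcstv3*. The extent of H3K9me3 did not overlap between them in any library. The called share was 9.35% and 18.7%, 15.0% and 6.54%, and 19.6% and 32.7% at *Tcstv1*, and 48.6% and 57.0%, 51.4% and 52.3%, and 65.4% and 43.9% at *Tcstv3*. At *Tcstv1* an upstream peak from -3.62 to -1.62 kb had 98 and 85 ChIP reads for wild-type. A peak was at this place in every library but *Uhrf1* KO 1, and in *Dhx9* KO 2 it reached to -0.616 kb. Both *Dhx9* KO libraries called 600 bp from 3.79 to 4.38 kb that wild-type cells lacked.

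*Tcstv3* had the most ChIP reads of the 9 genes in all libraries but *Uhrf1* KO 1 and *Dhx9* KO 2, where *Tdpoz3* had more. Reads are summed over whole peaks, and in both of those libraries a *Tdpoz3* peak ran to 35.0 kb, past the window. The *Tcstv3* peaks held 3952 and 5542 ChIP reads for wild-type, 2814 and 5263 for *Uhrf1* KO and 4212 and 3393 for *Dhx9* KO. Background reads were 1259 and 1306, 681 and 692, and 1342 and 1238. Wild-type 2 shows where they fell, since there a separate peak of 1600 bp from 3.34 to 4.94 kb held 5010 ChIP and 963 background reads. That is 3131 and 602 reads per kb, where the peak over the gene itself in the same library had 54.5 and 34.3. The reference is unknown next to this place, from 4.78 kb to the end of the window, over 6622 bases. In the 5 libraries other than wild-type 2, 1 peak spans this stretch and the gene or a part of it, so that the reads of both are summed in the lists. How much of the *Tcstv3* signal belongs to other places in the genome was not tested.

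*Zfp352*, a zinc finger gene, is at chr4:90218820-90225687 on the plus strand and is the member whose transcript holds no repeated 150-base word (0%). All 6 libraries called 800 bp from 7.58 to 8.38 kb and 2200 bp from 9.78 to 12.0 kb, both beyond the end of the transcript, and no library had a promoter peak. In the second of these places 79.9% of bases are soft-masked repeats, and the 200 bases at its centre are shown with masked bases in capitals. Each 50-base word of them is found 1 time in the genome.

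Zfp352 downstream stretch, chr4:90229601-90229800 (+): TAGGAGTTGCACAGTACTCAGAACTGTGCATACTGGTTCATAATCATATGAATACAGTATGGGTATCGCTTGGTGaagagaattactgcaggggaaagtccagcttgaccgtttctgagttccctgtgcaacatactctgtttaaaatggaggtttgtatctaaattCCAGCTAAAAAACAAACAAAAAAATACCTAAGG

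ChIP reads in the peaks of the *Zfp352* window were 180 and 278 for wild-type, 245 and 515 for *Uhrf1* KO and 345 and 469 for *Dhx9* KO. The called share was 12.7% and 26.1%, 28.6% and 35.3%, and 27.5% and 33.1%, so that every knockout library stood above both wild-type libraries. Peaks over the 3′ part of the transcript, beginning between 3.38 and 3.78 kb, were called in all libraries except wild-type 1. A further peak beginning at 15.8 kb was called in *Uhrf1* KO 1 with 34 reads, in *Uhrf1* KO 2 with 78 and in *Dhx9* KO 2 with 55, and neither in wild-type cells nor in *Dhx9* KO 1.

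*Tdpoz1*, *Tdpoz3* and *Tdpoz4* encode proteins with TRAF-like and BTB/POZ domains that are expressed in the early embryo. They lie on chromosome 3, at chr3:93669333-93676283 on the minus strand and at chr3:93826020-93827117 and chr3:93796398-93797510 on the plus strand. *Tdpoz3* and *Tdpoz4* are single-exon genes. The called share was 60.3% and 59.3% in wild-type, 95.3% and 84.0% in *Uhrf1* KO and 87.8% and 94.4% in *Dhx9* KO cells at *Tdpoz3*. At *Tdpoz4* it was 54.0% and 51.2%, 85.8% and 76.7%, and 83.9% and 88.6%. At both genes the 2 wild-type libraries lay close together and below all 4 knockout libraries.

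A peak covered the gene and the promoter of *Tdpoz3* and *Tdpoz4* in each library, over the bases from -2.62 to 2.78 kb at *Tdpoz3* and from -2.40 to 2.80 kb at *Tdpoz4*. A further stretch called in all 6 libraries ran from 3.98 to 11.2 kb at *Tdpoz3* over 7200 bp, and from 4.80 to 10.2 kb at *Tdpoz4* over 5400 bp. The centre of the first, the longest stretch of any member called in all libraries, is shown with soft-masked bases in capitals. The 50-base words of these bases are found up to 27 times in the genome, with a median of 1.

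Tdpoz3 downstream stretch, chr3:93833501-93833700 (+): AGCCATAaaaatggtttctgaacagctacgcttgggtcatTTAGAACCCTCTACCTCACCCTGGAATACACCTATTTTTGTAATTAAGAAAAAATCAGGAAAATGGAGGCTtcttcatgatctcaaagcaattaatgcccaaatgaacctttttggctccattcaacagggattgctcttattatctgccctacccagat

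What the knockout libraries added lay mostly upstream. At *Tdpoz4* the same 4800 bp, from -10.0 to -5.20 kb, were called in all 4 knockout libraries and in neither of wild-type. Their peaks there had log2 folds of 1.20, 0.20, 0.15 and 0.22, of which only that of *Uhrf1* KO 1 is near those of the peak over the gene. At *Tdpoz3* the *Dhx9* KO libraries shared 5200 added bp from -8.82 to -3.62 kb, and the *Uhrf1* KO libraries 2200 and 1400 added bp between -9.02 and -4.02 kb. In *Dhx9* KO 1 the peak there held 421 ChIP reads over 384, with a log2 fold of 0.13. In *Dhx9* KO 2 these bases lie within 1 peak of 43800 bp that also covers the gene, so they have no value of their own. The *Uhrf1* KO peaks there, over another background, had log2 folds of 1.14 in replicate 1 and 0.76 and 0.97 in replicate 2. The peak over *Tdpoz4* itself had 593 and 621 ChIP reads for wild-type, 273 and 581 for *Uhrf1* KO and 564 and 646 for *Dhx9* KO, so that the *Dhx9* KO values lay on either side of those of wild-type.

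*Tdpoz1* was the least marked of the 3. Its wild-type peaks began 15.1 and 15.3 kb downstream of the start and held 85 and 55 ChIP reads over 50 and 29, with a called share of 6.93% and 4.45%. In *Dhx9* KO cells the share was 19.5% and 14.4% and both libraries called 1400 bp from 11.7 to 13.1 kb that wild-type cells lacked. *Uhrf1* KO 1 had 21.8% and *Uhrf1* KO 2 no peak at all. Since reads outside peaks are not listed, no count or limit can be given there.

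**Figure D2:**
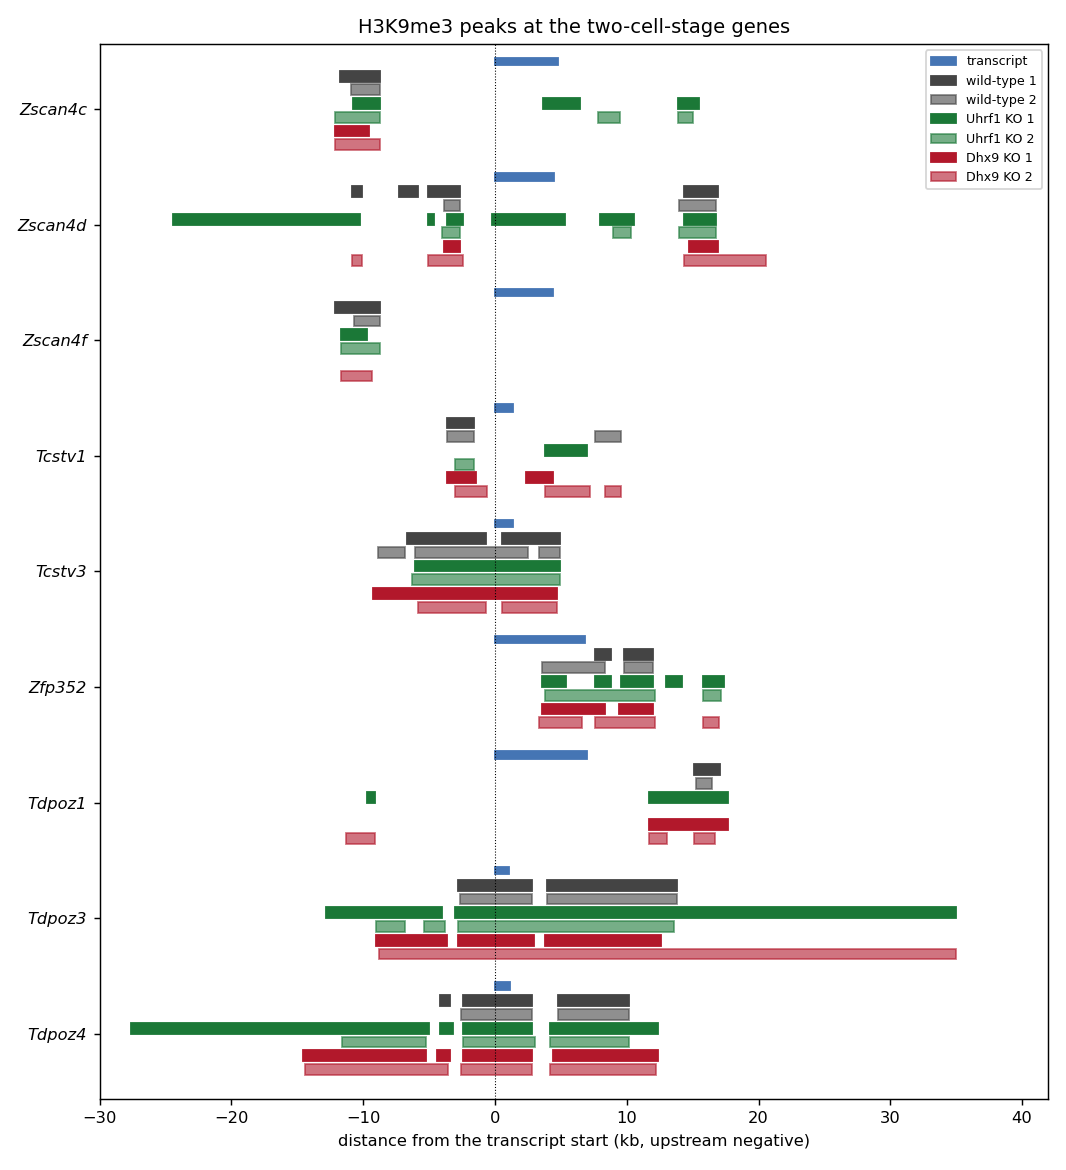
H3K9me3 peaks of the 6 libraries (grey wild-type, green *Uhrf1* KO, red *Dhx9* KO, paler for replicate 2) at the 9 genes by distance from the transcript start in kb, along the gene, with the RefSeq transcript in blue. Peaks cover the start of *Tdpoz3* and *Tdpoz4* in all 6 libraries and lie over 8 kb upstream of *Zscan4c* and *Zscan4f*.

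Whether a member had a peak at all hardly depended on the library. In the order of libraries given above, 9, 9, 9, 8, 8 and 9 of the 9 windows and 3, 3, 4, 3, 3 and 4 of the promoters had a peak, where a promoter reaches 1 kb to each side of a start. *Tcstv3*, *Tdpoz3* and *Tdpoz4* had a promoter peak in all 6 libraries, *Zscan4d* in *Uhrf1* KO 1 and *Tcstv1* in *Dhx9* KO 2. A window counts as lost if a peak was present in each library of wild-type and absent from each of the knockout, and as gained in the reverse case. In *Uhrf1* KO cells 0 of 9 windows were lost and 0 gained, beside 10.3% and 0.758% of all 32961 genes, and 0 promoters were lost or gained, beside 7.89% and 0.704%. In *Dhx9* KO cells the counts were 0 and 0 of the windows, beside 1.62% and 1.49%, and 0 and 0 of the promoters, beside 2.14% and 1.37%. With 9 genes, such shares of all genes give counts at or near 0 or 1, so that nothing particular to the members can be read from them.

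The called share was higher in both *Uhrf1* KO libraries than in both wild-type libraries at 4 of 9 members, *Zscan4c*, *Zfp352*, *Tdpoz3* and *Tdpoz4*, beside 6.67% of all genes. It was lower in this sense at 0 members, beside 39.9%, with the *Uhrf1* KO peaks called over another background. In *Dhx9* KO cells it was higher at 5, *Tcstv1*, *Zfp352*, *Tdpoz1*, *Tdpoz3* and *Tdpoz4*, beside 12.9%, and lower at 1, *Zscan4f*, beside 20.1%. The members' median share was 12.7%, 18.7%, 28.6%, 15.5%, 19.6% and 32.7% in the 6 libraries, and that of all genes 11.1%, 10.5%, 0%, 5.67%, 11.2% and 8.44%. Both wild-type values of the members were below the *Dhx9* KO values, by a mean of 10.5 percentage points, while 1 *Uhrf1* KO value lay above and the other between them, with a mean 6.38 points higher. Without *Uhrf1* KO 1 the latter difference was -0.18 points. The *Dhx9* KO difference was 3.95 points without *Dhx9* KO 2, 17.04 without *Dhx9* KO 1 and -0.33 when peaks under a log2 fold of 1 were left out. With 2 libraries against 2, the exact two-sided permutation test cannot give a p below 0.333, so no call was made on these shares. Neighbours of 1 cluster, such as *Tdpoz3* and *Tdpoz4*, are not independent of each other.

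**Figure D3:**
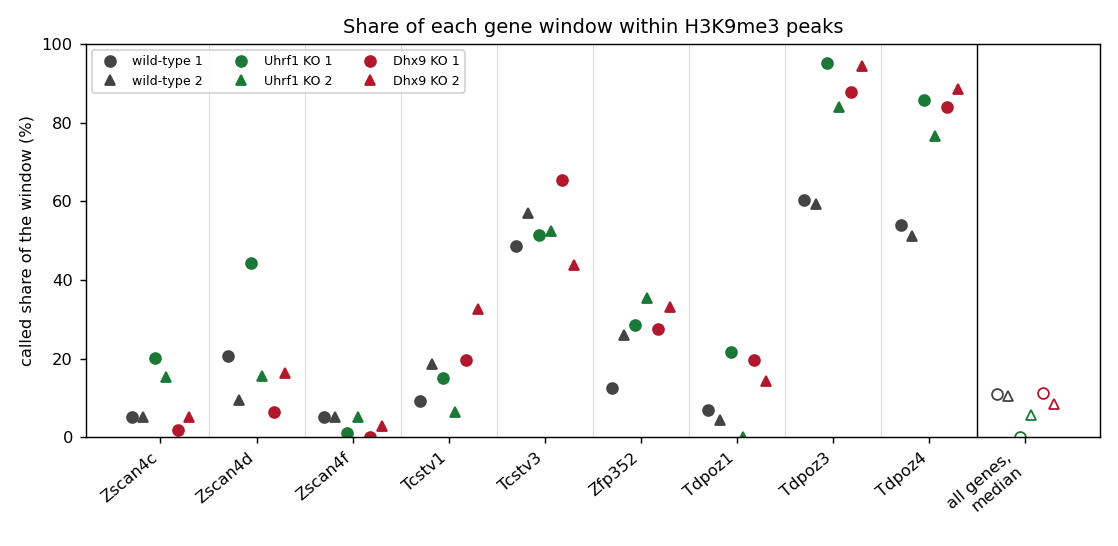
Percent of each gene window within H3K9me3 peaks (y axis) in the 6 libraries (grey wild-type, green *Uhrf1* KO, red *Dhx9* KO, circles replicate 1, triangles replicate 2), with the median over all 32961 genes as open symbols. At *Tdpoz3*, *Tdpoz4* and *Zfp352* all 4 knockout libraries lie above both wild-type libraries. The *Uhrf1* KO peaks were called over another background.

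In 200-bp bins, the members' windows held 215 bins called in both wild-type libraries. Of these 3, or 1.40%, were called in neither *Uhrf1* KO library, and 4, or 1.86%, in neither *Dhx9* KO library. Over the windows of all genes these shares were 34.3% and 14.1%. Of the bins called in both knockout libraries, 69 of 283 in *Uhrf1* KO (24.4%) and 73 of 296 in *Dhx9* KO cells (24.7%) were called in neither wild-type library, beside 11.3% and 10.1% over all gene windows. *Tdpoz3* and *Tdpoz4* supplied 24 and 27 of the added bins of *Uhrf1* KO and 28 and 32 of those of *Dhx9* KO, and bins next to each other are not independent. Of the wild-type bins lost, 3 in *Uhrf1* KO were at *Tcstv1*, which had 10 wild-type bins. In *Dhx9* KO 3 were at *Zscan4f*, which had 6, and 1 at *Tcstv3*. *Tcstv3*, *Tdpoz3* and *Tdpoz4* held 45, 63 and 53 of the 215 wild-type bins, so the pooled shares lost mostly describe these genes. The *Uhrf1* KO bins come from peaks called over another background.

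The strength of the peaks was measured next, as the log2 fold of ChIP over background reads summed over a window's peaks and scaled to library size. The median over the members was 1.62, 1.51, 2.00, 2.20, 1.17 and 1.47, and that over all genes with a peak was 0.96, 0.96, 1.44, 1.16, 0.85 and 0.96. In *Dhx9* KO cells, on the same background as wild-type, both values lay below both wild-type values at 5 of the 8 members with a peak in all 4 libraries, *Zscan4c*, *Zscan4d*, *Tcstv3*, *Tdpoz3* and *Tdpoz4*, beside 37.7% of 19992 windows, and above them at 0, beside 8.69%. At *Tdpoz4* the values were 0.83 and 0.90 for wild-type and 0.48 and 0.48 for *Dhx9* KO. In *Uhrf1* KO cells, on another background, both values lay above both of wild-type at 6 of 8, *Zscan4c*, *Zscan4d*, *Zscan4f*, *Tcstv3*, *Zfp352* and *Tdpoz3*, beside 49.2% of 14897 windows, and below them at 0, beside 11.1%. The largest of these differences was at *Zscan4f*, with 1.65 and 1.51 for wild-type and 2.73 and 3.13 for *Uhrf1* KO, on 7 and 12 background reads in *Uhrf1* KO cells.

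**Figure D4:**
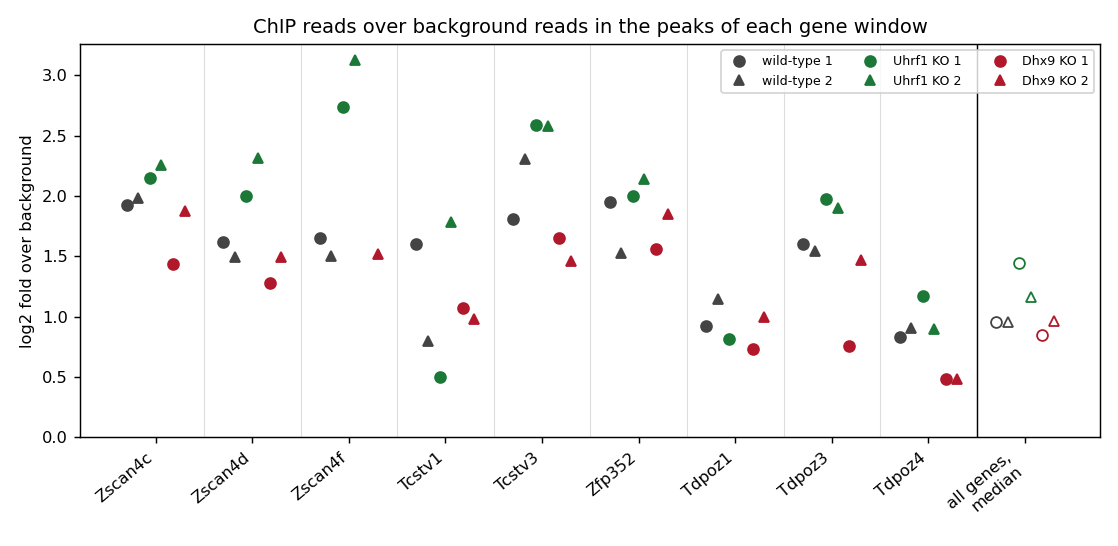
Log2 fold of ChIP over background reads, scaled to library size, in the peaks of each gene window (y axis) for the 6 libraries (grey wild-type, green *Uhrf1* KO, red *Dhx9* KO, circles replicate 1, triangles replicate 2), with the median over all genes with a peak as open symbols. *Zscan4f* in *Uhrf1* KO is highest, at 2.73 and 3.13, and has no value in *Dhx9* KO 1.

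ChIP reads per called length did not pass the test at any member. edgeR's quasi-likelihood test was fitted over all windows with a peak in each of the 4 libraries, 14906 for *Uhrf1* KO and 19992 for *Dhx9* KO, with Benjamini-Hochberg adjustment and a threshold of 0.05. For *Uhrf1* KO, 0 of 8 tested members were lower and 0 higher, beside 0.0134% and 0.00671% of all windows (2 and 1). For *Dhx9* KO, 0 of 8 were lower and 0 higher, beside 0.145% and 0.02% (29 and 4). At an unadjusted p under 0.05, 1021 windows were lower and 1349 higher in *Uhrf1* KO and 1412 lower and 727 higher in *Dhx9* KO cells. DESeq2 called 64 and 182 of 12594 windows with an adjusted p in *Uhrf1* KO and 200 and 34 of 19992 in *Dhx9* KO cells. It called 0 members in either, but gave *Zscan4c*, *Zscan4f* and *Tcstv1* no adjusted p in *Uhrf1* KO, so these could not be called there. *Tdpoz1* could not be tested in *Uhrf1* KO and *Zscan4f* in *Dhx9* KO cells for want of a peak in 1 library.

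The members with the lowest unadjusted p were *Tdpoz4* and *Tcstv3*. At *Tdpoz4* reads per called length differed by -0.41 ± 0.11 (log2, SE, n = 2 libraries per genotype, edgeR adjusted p = 0.205) in *Uhrf1* KO and -0.38 ± 0.09 (edgeR adjusted p = 0.215) in *Dhx9* KO cells. These values turn to 1.72 and 0.86 when called length is not taken into account. The peaks of this window were 11400 and 10800 bp long in total in wild-type, 37000 and 17800 in *Uhrf1* KO and 23600 and 24200 in *Dhx9* KO cells. Over the region around the gene that could be tested by itself, the difference was -0.27 ± 0.12 (log2, SE, edgeR adjusted p = 0.175) in *Uhrf1* KO and -0.0026 ± 0.13 (edgeR adjusted p = 0.996) in *Dhx9* KO cells. At *Tcstv3* the difference was -0.42 ± 0.12 in *Dhx9* KO (edgeR adjusted p = 0.313) and 0.17 ± 0.13 in *Uhrf1* KO cells (edgeR adjusted p = 0.566), and these reads include the stretch beside the unknown bases. Over the alternatives tried, the adjusted p of this *Dhx9* KO value ran from 0.0151 to 0.962 (edgeR or DESeq2). The remaining members lay between -0.06 and 0.25 in *Uhrf1* KO and between -0.22 and 0.03 in *Dhx9* KO cells, each with an adjusted p of at least 0.56 (edgeR). Whether the 2 knockouts differ from each other was not tested.

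**Figure D5:**
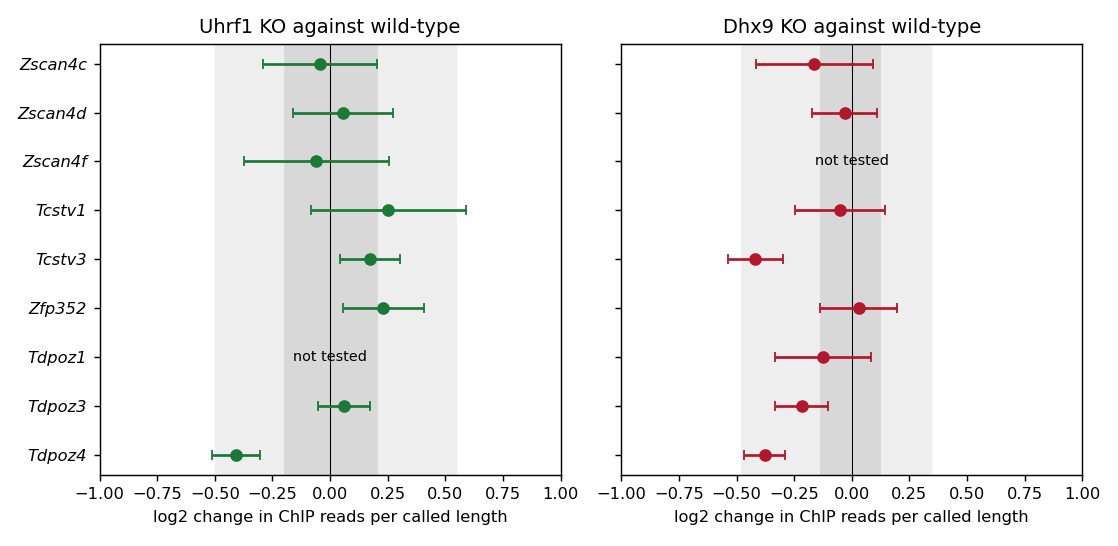
Log2 change in ChIP reads per called length, knockout minus wild-type (x axis), with the standard error of the edgeR fit as bars, for the members in *Uhrf1* KO (left) and *Dhx9* KO (right). Dark and pale grey bands hold the middle 50% and 90% of all tested windows, and the lowest members are *Tdpoz4* at -0.41 and *Tcstv3* at -0.42.

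Related genes of the same clusters were read in the same way. Of the other *Zscan4* genes, *Zscan4b* had log2 folds over background of 3.47, 3.45, 3.15, 4.18, 2.68 and 3.11, above every *Zscan4* member in each library, and *Zscan4a* had no peak in *Dhx9* KO 1. *Tdpoz2* had a promoter peak in all 6 libraries, with called shares of 30.3%, 26.5%, 41.1%, 31.2%, 40.1% and 49.2%, and *Tdpoz5* had 1 peak in each library and none at its promoter. *AF067063*, a relative of the *Tcstv* genes, had no peak in *Uhrf1* KO 1, and *BC147527* shares peaks with *Tcstv3*. In the edgeR test 0 of 2, 0 of 2 and 0 of 2 tested genes of these 3 groups passed in *Uhrf1* KO, and 0 of 1, 0 of 2 and 0 of 3 in *Dhx9* KO cells. Of the *Eif1a*-like, *Usp17*-like and *Pramel* genes of the 2-cell stage, 0 of 7, 0 of 2 and 0 of 5 passed in *Uhrf1* KO and 0 of 7, 0 of 4 and 0 of 5 in *Dhx9* KO cells. Of 13 listed repressors of the 2-cell genes, *Uhrf1* and *Dhx9* among them, 2 could be tested in each comparison and 0 passed. Of the pluripotency and housekeeping lists, 0 of 2 and 0 of 1 tested genes passed in *Uhrf1* KO and 0 of 3 and 0 of 2 in *Dhx9* KO cells.

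Among 6 listed activators of the 2-cell genes, 2 could be tested, and 0 passed in *Uhrf1* KO and 1 in *Dhx9* KO cells, named here after its value was seen. *Duxf3* (chr10:58229505-58233517), an entry for the double homeobox factor DUX that switches on *Zscan4* and other 2-cell genes, lies within called stretches of 19200 to 22200 bp that cover its promoter in all 6 libraries. This peak held 12637 and 11131 ChIP reads for wild-type, 2702 and 7253 for *Uhrf1* KO and 8117 and 9368 for *Dhx9* KO, and log2 folds over background were 2.55, 2.43, 1.27, 1.80, 1.73 and 1.94. In log2 fold, all 4 knockout libraries were below both wild-type libraries. Both *Dhx9* KO values lay below both wild-type values at 37.7% of 19992 windows. For *Uhrf1* KO, on another background, this held at 11.1% of 14897 windows. Reads per called length differed by -0.60 ± 0.07 (log2, SE) in *Dhx9* KO, with an edgeR adjusted p of 0.0343, and by -0.92 ± 0.17 in *Uhrf1* KO cells, with an edgeR adjusted p of 0.157. Without wild-type replicate 1 the former was -0.56 with an edgeR adjusted p of 0.0582, and over the alternatives its adjusted p ran from 2.64e-08 to 0.588. In the latter it ran from 9.74e-05 to 0.507. The *Duxf3* window holds 14.0% repeated 150-base words, and copies of the array it belongs to share reads.

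The genes whose called share over the 6 libraries was nearest to the members' median were *Clec4b2*, *Gm29960*, *Vmn2r89*, *Slc22a29* and *Vmn2r82*, at Euclidean distances of 4.90, 7.35, 7.52, 8.52 and 8.68 percentage points. They lie on chromosomes 6, 16, 14, 19 and 10. *Clec4b2*, a C-type lectin gene, had called shares of 14.2% and 16.6%, 27.3% and 18.8%, and 18.4% and 30.9%.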

How the data were processed

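H3K9me3 ChIP-seq peak lists of 6 mESC libraries were analysed, 2 each of wild-type, *Uhrf1* KO and *Dhx9* KO, grouped by their labels, and 12 further samples of the series were not analysed here. The authors aligned single-end reads of 150 bases to mm10 with Bowtie2 2.3.4.3, which gives a read with several equal places to 1 of them. Peaks were called per library with epic2 0.0.51 in bins of 200 bp, keeping duplicates. Their methods state that reads were first subsampled to about the same number per library and that wild-type input was the background. Each deposited peak has raw counts, 1 of ChIP and 1 of background reads. The authors' peak caller also gave each a p-value, a false discovery rate and a log2 ratio of both counts relative to library size. The deposited score restates that log2 ratio and was not used. ChIP library sizes derived from the lists were 0.461 to 1.12 times that of wild-type 1, so the lists do not show the stated even depth. The *Uhrf1* KO lists also have another background than the wild-type lists, and which input it was is not given. A count has Poisson error at least, and precision covers counting error only. The libraries are labelled replicates, which the authors' methods call biological, and p-values measure only the spread between them. What separated these replicates is not given in the sources used here.

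Gene positions (1-based) are those of the deposited annotation of mm10, and chromosome 2 was left out because the inserted reporter shifts its coordinates there. Starts of 8 of 9 members equal those of GRCm38.p6, which gave the sequences, and *Zscan4d* has a further predicted transcript. Reads of the peaks of a window were summed and tested with edgeR 4.0.16 in R 4.3.3 (TMM, called length as offset, filterByExpr, which removed 0 windows, quasi-likelihood test), with DESeq2 1.42.0 as an alternative. On simulated data with 200 windows changed 2-fold, 192 were recovered with 8 false calls for *Uhrf1* KO and 195 with 7 for *Dhx9* KO. The simulated counts had the same preset dispersion in every window, not one estimated from these libraries. This trial therefore does not give the share of real 2-fold changes that the test would find. Words of 150 and 50 bases were counted on both strands of chromosomes 1 to 19, X and Y with numba 0.67.0, and transcripts were aligned with BLAST 2.17.0. Calculations and plots used scipy 1.17.1, pandas 2.3.3, matplotlib 3.10.9 and Python 3.11.15 with numpy 2.4.6.

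The members and gene lists were chosen with earlier results of these data known. Named are the 9 members, genes of 3 related lists, and the 5 genes of no list whose called share is most like the members' median, with *Duxf3* named after its value was seen. Alternatives were DESeq2, no length offset, other library sizes, no filter, a joint fit of the 6 libraries, a replicate block, flanks of 0 or 25 kb, background reads as offset, merged regions covered over 80%, stricter peaks (false discovery rate of 1e-10, log2 fold of 1, 1000 bp, lists cut to equal length) and each library left out. A sequence near *Tcstv3* is not reported here.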

Additional observations from a re-analysis of the deposited data

How the results depend on the processing

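Replicate numbers are shared by the genotypes, and deviations of same-numbered libraries correlated at 0.0065 for *Uhrf1* KO and -0.00031 for *Dhx9* KO. These values gave no sign of pairing, but whether same-numbered libraries were processed together is not stated. With a replicate block, 5 windows were lower and 3 higher in *Uhrf1* KO and 277 and 46 in *Dhx9* KO, and 1 member passed in *Dhx9* KO cells, *Tcstv3* at -0.41 (edgeR adjusted p = 0.0151). No other alternative put a member past the threshold of the read test, but DESeq2 gave no adjusted p at *Zscan4c*, *Zscan4f* and *Tcstv1* in *Uhrf1* KO. DESeq2 called 64 lower and 182 higher windows in *Uhrf1* KO and 200 and 34 in *Dhx9* KO, and library sizes from the log2 folds gave 10 and 174 (median of all windows 0.19) and 39 and 2 (median -0.10).

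Of the members' log2 changes under alternatives that kept all libraries, 110 stayed on the side of the main value, 21 reversed in sign and 1 passed. Without the length offset, *Uhrf1* KO values became 1.86 at *Zscan4c*, 0.35 at *Zscan4f* and 1.72 at *Tdpoz4*. *Dhx9* KO values became 0.22 at *Zscan4c*, 0.34 at *Zscan4d*, 1.05 at *Tcstv1*, 1.82 at *Tdpoz1*, 1.07 at *Tdpoz3* and 0.86 at *Tdpoz4*. In such a fit a longer peak counts as more reads. At *Zscan4f* the called lengths were 3400 and 2000 bp in wild-type and 2000 and 3000 bp in *Uhrf1* KO. Library sizes from the log2 folds gave 0.16 at *Zscan4c* and 0.13 at *Zscan4f* (*Uhrf1* KO) and -0.075 at *Zfp352* (*Dhx9* KO). Background reads as offset gave 0.062 at *Zscan4c*, 1.14 at *Zscan4f* and -0.18 at *Tcstv1* (*Uhrf1* KO). A flank of 25 kb gave -0.17 at *Zscan4d* and -0.26 at *Tcstv1* (*Uhrf1* KO) and 0.058 at *Tdpoz4* (*Dhx9* KO), no flank gave 0.21 at *Tcstv3* and 0.23 at *Tdpoz3* (*Dhx9* KO), and the joint fit 0.0060 at *Zscan4d* (*Dhx9* KO). The cause of these reversals was not tested.

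Leaving out 1 library leaves 1 sample in its group, which is assumed to vary like the other group. Of the members' log2 changes in such fits, 51 stayed and 13 reversed. In *Uhrf1* KO cells they ran from -0.25 to 0.18 at *Zscan4c*, -0.26 to 0.39 at *Zscan4d*, -0.46 to 0.24 at *Zscan4f*, -0.18 to 0.65 at *Tcstv1* and -0.038 to 0.20 at *Tdpoz3*. In *Dhx9* KO cells they ran from -0.38 to 0.068 at *Zscan4c*, -0.068 to 0.0055 at *Zscan4d*, -0.18 to 0.057 at *Tcstv1* and -0.16 to 0.20 at *Zfp352*. Counts of lost windows became 0 to 1 in *Uhrf1* KO (*Tdpoz1*, without *Uhrf1* KO 1) and 0 to 1 in *Dhx9* KO (*Zscan4f*, without *Dhx9* KO 2), and gained promoters 0 to 1 in *Uhrf1* KO (*Zscan4d*, without *Uhrf1* KO 2) and 0 to 1 in *Dhx9* KO (*Tcstv1*, without *Dhx9* KO 1). The difference in median called share ran from -0.18 to 12.9 points in *Uhrf1* KO and from 3.95 to 17.04 in *Dhx9* KO.

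Stricter peaks moved some counts from 0 to 1. At a log2 fold of at least 1, and in lists limited to equal length, 1 promoter was gained in *Uhrf1* KO (*Tdpoz3* in both). In *Dhx9* KO, 1 window was lost when at least 1000 bp had to be called (*Zscan4f*), and 1 was gained at a false discovery rate of 1e-10 (*Tdpoz1*). The *Dhx9* KO difference in median share was -0.33 points at a log2 fold of at least 1 and 0 with no flank, and the cause was not tested. Of the merged regions, only 4 members had one covered over 80% in *Uhrf1* KO and 1 in *Dhx9* KO. The *Duxf3* call in *Dhx9* KO was lost without the length offset (-0.39, edgeR adjusted p = 0.588), in the joint fit (-0.57, edgeR adjusted p = 0.533) and without wild-type replicate 1 (-0.56, edgeR adjusted p = 0.0582). In *Uhrf1* KO *Duxf3* passed with DESeq2 (adjusted p = 9.74e-05), and without *Uhrf1* KO 1 or 2 its edgeR adjusted p was 0.0090 or 0.0055, in fits that called 279 lower and 957 higher or 149 and 322 of all windows. Depth limits single peaks, with 32 to 151 ChIP reads in the upstream peaks of *Zscan4c* and *Zscan4f*.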
